A study of Mus musculus with 14 samples.

Results

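The genes of cholesterol synthesis and its sterol control were followed liver by liver in mice fed a high-fat diet. The set holds 28 listed genes out of 24970 genes that were detected in 1 or more livers. It covers 8 genes of the mevalonate arm, 3 that make squalene and lanosterol, 8 of the steps from lanosterol to cholesterol, 6 that control the transcription factor SREBP2, and 3 further targets of that factor. The value of a gene is the sum of its transcripts' estimated counts, and all 28 genes passed the filter on low counts, which kept 13127 genes. The genes were listed by their function, though with earlier results of these data known. RNA of whole liver was sequenced from 6 recipients of brown fat pre-adipocytes, taken from its stromal cells, differentiated and seeded on a silk scaffold (transplant), and from 8 recipients of a scaffold with no cells (empty scaffold). The high-fat diet was common to both groups. The sources used here do not give strain, sex, age or time after surgery. The labels do not state that the samples are separate mice, and p-values here measure sample-to-sample spread, which may be technical.

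Cholesterol is built from acetyl-CoA by way of mevalonate, squalene and lanosterol, and the liver is a main site of this work. SREBP2 is a transcription factor held in the membrane of the endoplasmic reticulum. The escort protein SCAP carries it to the Golgi, where a pair of proteases release its active part, while sterols and the INSIG proteins keep it in place. When sterols run low, SREBP2 raises the genes of the whole route together, its own gene and Insig1 included.

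Total estimated counts ranged from 19482580 to 28910968 per library. The 6 hepatocyte markers together stood at 77987 to 146170 CPM, so the libraries held hepatocyte RNA as labelled. CPM here means a count scaled by the size of its library and by TMM, edgeR's composition factor, and CPM values are compared between livers, not between genes. Titles carry numbers that fall below 100 (3 transplant and 4 empty scaffold livers) or at 100 or above (again 3 and 4). The labels do not say what the numbers mean. Inside either range the groups occupy separate runs of numbers that do not interleave. A group difference within a range, or with the range as a covariate, is therefore also a difference between runs. The libraries also differed in how level followed transcript length. The slope on log2 length lay between -0.29 and 0.019 in transplant livers, and between -0.098 and 0.25 in empty scaffold livers. The 4 empty scaffold livers numbered 100 or above had slopes of 0.19 to 0.25, and no other liver exceeded 0.019.

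The stretches before the start sites of 6 members are shown first. They were picked because 5 of these members are the enzymes and the regulator that moved with the squalene epoxidase gene below. Hmgcs1 is the member with a match to the form of the sterol regulatory element that was searched. The stretches come from RefSeq (build GRCm38.p6), each read 5′ to 3′ toward the gene over the 250 bases before the start. Hmgcs1 lies on the plus strand at chr13:119690101-119690350, Lss on the plus strand at chr10:76531355-76531604 and Srebf2 on the plus strand at chr15:82147019-82147268. Mvd lies on the minus strand at chr8:122443423-122443672, Cyp51 on the minus strand at chr5:4104698-4104947 and Msmo1 on the minus strand at chr8:64733579-64733828. Capitals mark CCAAT or its complement ATTGG, the box bound by NF-Y, a common partner of SREBP2, and in Hmgcs1 also TCACCCCAC, a match to TCANNCCAC, a form of the sterol regulatory element to which SREBP2 binds.
Hmgcs1: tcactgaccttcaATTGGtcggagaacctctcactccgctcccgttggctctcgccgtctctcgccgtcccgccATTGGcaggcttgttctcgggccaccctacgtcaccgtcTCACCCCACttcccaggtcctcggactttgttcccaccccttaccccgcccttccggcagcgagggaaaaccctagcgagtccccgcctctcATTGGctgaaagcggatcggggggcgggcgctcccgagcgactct
Mvd: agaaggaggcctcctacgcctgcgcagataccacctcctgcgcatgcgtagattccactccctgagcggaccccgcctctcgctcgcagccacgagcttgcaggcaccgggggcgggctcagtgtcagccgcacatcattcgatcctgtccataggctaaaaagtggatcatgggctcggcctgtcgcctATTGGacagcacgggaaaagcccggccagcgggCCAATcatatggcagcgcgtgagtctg
Lss: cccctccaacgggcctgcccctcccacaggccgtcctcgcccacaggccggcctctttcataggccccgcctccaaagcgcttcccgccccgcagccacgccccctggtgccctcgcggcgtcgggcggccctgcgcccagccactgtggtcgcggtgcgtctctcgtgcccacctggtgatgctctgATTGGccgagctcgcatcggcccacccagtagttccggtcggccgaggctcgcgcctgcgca
Cyp51: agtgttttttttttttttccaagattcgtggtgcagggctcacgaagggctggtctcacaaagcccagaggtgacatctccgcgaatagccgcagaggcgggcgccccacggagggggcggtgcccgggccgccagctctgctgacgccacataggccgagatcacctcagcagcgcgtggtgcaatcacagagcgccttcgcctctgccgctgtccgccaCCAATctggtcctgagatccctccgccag
Msmo1: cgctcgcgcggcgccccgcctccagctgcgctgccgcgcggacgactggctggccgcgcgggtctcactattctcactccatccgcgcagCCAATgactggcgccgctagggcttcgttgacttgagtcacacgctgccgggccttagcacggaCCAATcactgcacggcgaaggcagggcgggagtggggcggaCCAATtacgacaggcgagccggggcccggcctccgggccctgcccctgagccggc
Srebf2: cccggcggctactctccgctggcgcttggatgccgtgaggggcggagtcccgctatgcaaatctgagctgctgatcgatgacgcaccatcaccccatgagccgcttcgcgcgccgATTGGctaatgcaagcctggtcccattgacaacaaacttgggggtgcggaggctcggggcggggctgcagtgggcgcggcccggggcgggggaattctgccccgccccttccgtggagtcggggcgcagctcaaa
The CCAAT box stood 29 bases before the start in Cyp51, 60 and 27 bases before it in Mvd, 62 bases in Lss, and 160, 96 and 55 bases in Msmo1. In Srebf2 it stood 135 bases before the start. RefSeq windows of 300 bases (250 before and 50 after the start) were found for 24 members, 31 windows in all, and none for Fdps, Fdft1, Sqle and Stard4. On either strand, with overlaps counted, CCAAT was present in 20 of the 31 windows (64.5%) and in 37.4% of all 32851 windows of that length. At least 2 boxes were present in 41.9% of the member windows and in 11.7% of all windows. TCANNCCAC was present in 1 member window (3.23%) and in 4.18% of all windows. Other forms of the sterol regulatory element were not searched, so a window without this match may still hold one. All 5 genes called in the association with Sqle that had a window held CCAAT. Among all 24 members with a window, 20 held it in at least 1 window, so the box did not set the called genes apart. A match describes letters only.

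The members spanned a wide range of levels per length. In TPM, the deposited per-length share, the medians over 14 livers ran from 124 for Insig2, 107 for Ebp, the sterol isomerase, and 103 for Sc5d, a sterol desaturase, down to 1.59 for the SREBP protease gene Mbtps2 and 0.26 for Idi1, the isopentenyl diphosphate isomerase. The ranges of Insig2 (45.3 to 204 TPM), Ebp (79.2 to 161) and Sc5d (60.3 to 163) overlapped, so the order of these 3 is not set by the medians. Sqle stood at a median of 3.56 TPM (0.40 to 16.1), Lss at 3.11 (1.69 to 6.75) and Mvd at 3.05 (1.16 to 9.08), and their ranges overlapped as well. Idi1 rested on 0 to 70 estimated counts per liver, and whether some of its reads were assigned to similar sequences was not tested. Its 0, in empty scaffold replicate 8, allows up to 0.118 CPM (3 counts, covering counting error only), and the highest liver, at 2.86 CPM, was at least 24.2-fold higher.

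The pathway differed mainly between single livers and not between groups. Transplant replicate 2 had the highest level of 19 of the 28 members and stood above the 14-liver mean for 26 of them. Its median deviation from the members' own means was 0.71 on the log2 scale, while all 13127 genes in that liver had a median deviation of 0.025. Empty scaffold replicate 5 had the lowest level of 10 members, with a median deviation of -0.44 (all genes 0.024).

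**Figure D1:**
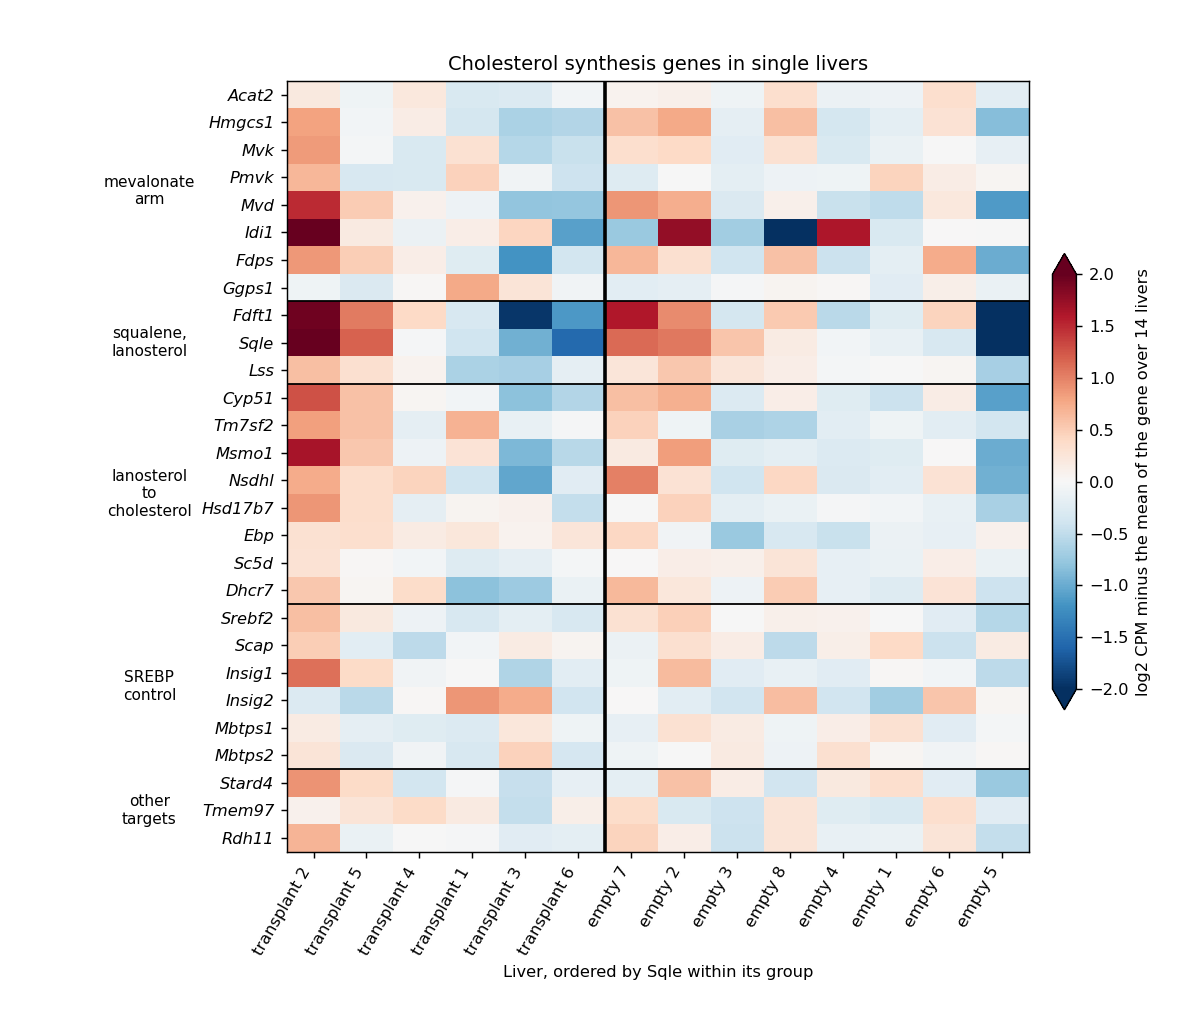
Deviation of each member's log2 CPM from its mean over 14 livers (colour, clipped at 2 in each direction), with members in rows by role and livers in columns, ordered by Sqle within transplant (left of the black line) and empty scaffold. Transplant replicate 2 is high for 26 members and empty scaffold replicate 5 is low for most of the synthesis genes, while Insig2 and Ggps1 lie below their means in transplant replicate 2.

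High and low livers occurred in both groups. Empty scaffold replicate 2 was among the highest 2 livers for 11 members (median deviation 0.32), empty scaffold replicate 7 for 7 (0.28), and transplant replicate 5 stood at 0.22. At the other end, transplant replicate 3 was among the lowest 2 livers for 15 members (-0.37), and transplant replicate 6 stood at -0.27. The median deviation thus spanned -0.37 to 0.71 among transplant livers and -0.44 to 0.32 among empty scaffold livers, and the groups overlapped. In whole liver, fewer cells of a type and less RNA per cell cannot be told apart.

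The spread of the members within groups was large for some and small for others. The within-group SD of log2 CPM had a median of 0.41 over the 28 members and 0.28 over all tested genes, and 9 members lay above the 90th percentile of all genes. Idi1 (1.34), Sqle (1.33) and Fdft1 (1.29) varied most, followed by Mvd (0.76), Msmo1 (0.70), Fdps (0.67) and Cyp51 (0.67). Sc5d (0.17), Mbtps1 (0.21) and Acat2 (0.21) varied least. From the lowest to the highest liver, Sqle differed 38.3-fold, Fdft1 20.0-fold and Sc5d 1.47-fold. The lowest values of Sqle and Fdft1, both in empty scaffold replicate 5, rested on 24 and 91 estimated counts.

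Squalene epoxidase, the product of Sqle (ENSMUSG00000022351), adds the oxygen that lets squalene close into a sterol. Its transcript was taken as the anchor for the joint rise and fall, because it is a sterol-sensitive step that acts only in this route. In the transplant livers Sqle stood at 39.8, 18.7, 8.08, 6.25, 4.18 and 2.75 CPM, in falling order, and in the empty scaffold livers it stood at 18.2, 17.1, 12.2, 9.26, 7.90, 7.39, 6.57 and 1.04 CPM. The highest and the middle levels were shared by both groups except for transplant replicate 2, which stood above every other liver, and empty scaffold replicate 5, which stood below every other.

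For every other gene, the change per log2 unit of Sqle was fitted at a given group over all 14 livers with edgeR's quasi-likelihood test. This slope is a log2 change of the gene for a doubling of Sqle. In that test 6 of the 27 other members rose with Sqle at an adjusted p under 0.05, against 0.0533% of all genes (7 of 13126). They were Fdft1, Cyp51, Mvd, Srebf2, Msmo1 and Lss. At an unadjusted p under 0.05 there were 17 of 27 members and 3.18% of all genes. The slope was positive for 25 members, with a median of 0.22 over the 27 members and -0.0013 over all genes. Both genes of each pair come from the same libraries and share their scaling.

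**Figure D2:**
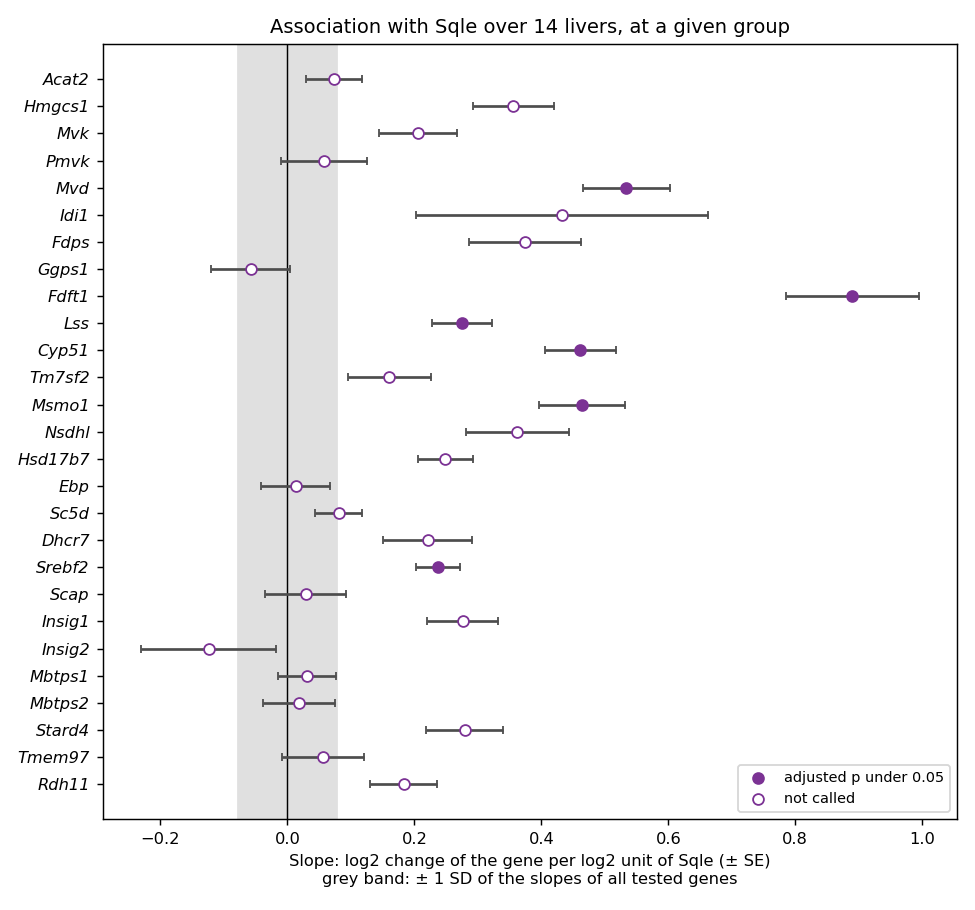
Slope of each member on Sqle (points, log2 change per log2 unit of Sqle, with bars of 1 SE) at a given group over 14 livers; filled points have an adjusted p under 0.05 and the grey band is 1 SD of the slopes of all tested genes on each side of 0. The 6 filled points run from 0.24 (Srebf2) to 0.89 (Fdft1), and Insig2 and Ggps1 are the members below 0.

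The calls rested in part on the livers at the ends of the range. Without transplant replicate 2 and empty scaffold replicate 5, the 2 livers farthest from the median of Sqle, edgeR called 0 members and 0 genes (10 members and 251 genes at an unadjusted p under 0.05), while the slopes of Fdft1, Cyp51, Mvd, Msmo1, Lss and Srebf2 were 0.94, 0.51, 0.58, 0.47, 0.27 and 0.24. Without transplant replicate 2 alone, 2 members were called.

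Fdft1 (ENSMUSG00000021273), which encodes squalene synthase, the first enzyme committed to sterols, followed Sqle most steeply. It stood at 5.21, 21.5 and 78.7 CPM (lowest, median and highest) in the transplant livers and at 3.93, 22.4 and 61.4 CPM in the empty scaffold livers, and the groups overlapped over nearly the whole range. Its slope was 0.89 ± 0.10 (SE; edgeR adjusted p = 0.00173). Lss, the lanosterol synthase gene, ranged from 9.22 to 22.2 CPM over a median of 14.2 in the transplant livers and from 9.24 to 21.4 CPM over a median of 15.6 in the empty scaffold livers. The slope of Lss was 0.27 ± 0.047 (edgeR adjusted p = 0.0454). That call was lost in 11 of the 14 fits that each left out 1 liver, where the slope stayed between 0.26 and 0.32.

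In the mevalonate arm 1 of 8 genes was called. Mvd, the decarboxylase that makes isopentenyl diphosphate, stood at 3.27, 5.69 and 16.2 CPM (lowest, median and highest) in the transplant livers and at 2.55, 5.41 and 10.6 CPM in the empty scaffold livers, so the transplant range held nearly all of the empty scaffold livers. Its slope on Sqle was 0.53 ± 0.068 (edgeR adjusted p = 0.00225). Hmgcs1 (ENSMUSG00000093930), the cytosolic synthase that starts the arm, stood at 90.2, 122 and 244 CPM in the transplant livers and at 77.2, 147 and 236 CPM in the empty scaffold livers. Its slope was 0.36 ± 0.063 and just missed the threshold (edgeR adjusted p = 0.0530). Fdps, which makes farnesyl diphosphate, had a slope of 0.37 ± 0.088 and Mvk, the mevalonate kinase gene, 0.21 ± 0.062, and neither was called (edgeR adjusted p = 0.511 and 0.9995). Idi1 had a slope of 0.43 ± 0.23 at its low counts. Ggps1, which serves the side branch to geranylgeranyl diphosphate, had a slope of -0.058 ± 0.062. Pmvk, the kinase after Mvk, had a slope of 0.058 ± 0.067 and Acat2, which joins acetyl-CoA units in the cytosol, one of 0.073 ± 0.044.

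Of the 8 genes from lanosterol to cholesterol, 2 were called. Cyp51 (ENSMUSG00000001467), the lanosterol demethylase, stood at 18.96, 33.3 and 81.4 CPM in the transplant livers and at 15.7, 32.4 and 55.0 CPM in the empty scaffold livers (lowest, median and highest). The medians of the groups were close and the highest liver was a transplant liver. Cyp51 rose by 0.46 ± 0.056 per log2 unit of Sqle (edgeR adjusted p = 0.00173). Msmo1, the methylsterol monooxygenase gene that acts after it, stood at 23.4, 46.6 and 137 CPM in the transplant livers and at 21.7, 37.2 and 77.8 CPM in the empty scaffold livers. Its slope was 0.46 ± 0.068 (edgeR adjusted p = 0.00854). Hsd17b7, a sterol ketone reductase, had a slope of 0.25 ± 0.044 (edgeR adjusted p = 0.0530), and Nsdhl, a sterol dehydrogenase, 0.36 ± 0.081 (edgeR adjusted p = 0.347). Dhcr7, the reductase that yields cholesterol itself, had a slope of 0.22 ± 0.070, and Tm7sf2, a sterol reductase, 0.16 ± 0.066, neither of them called. Sc5d (0.081 ± 0.037) and Ebp (0.013 ± 0.055), the most abundant enzymes of this stretch, had the smallest slopes.

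Among the genes that control SREBP2, its own gene was the only one called. Srebf2 (ENSMUSG00000022463) stood at 28.3, 32.0 and 53.7 CPM in the transplant livers and at 24.0, 36.4 and 49.5 CPM in the empty scaffold livers (lowest, median and highest), and the groups overlapped. Its slope was 0.24 ± 0.034 (edgeR adjusted p = 0.00743), less steep than those of Fdft1 and Cyp51 and with a small error. Insig1, the INSIG gene that SREBP2 drives, stood at 63.1, 93.7 and 206 CPM in the transplant livers and at 66.8, 89.1 and 150.0 CPM in the empty scaffold livers. It had a slope of 0.28 ± 0.056 and was not called (edgeR adjusted p = 0.165). Insig2, the INSIG gene not known as an SREBP2 target in liver, had a slope of -0.12 ± 0.11. The slopes of Scap, Mbtps1 and Mbtps2 lay between 0.018 and 0.031.

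Of the remaining targets, Stard4, a sterol carrier that moves cholesterol through the cytosol, had a slope of 0.28 ± 0.060 (edgeR adjusted p = 0.263) and Rdh11, a retinol dehydrogenase, 0.18 ± 0.053. Tmem97, an endoplasmic reticulum protein known as the sigma-2 receptor, had a slope of 0.056 ± 0.064. None of these 3 was called.

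**Figure D3:**
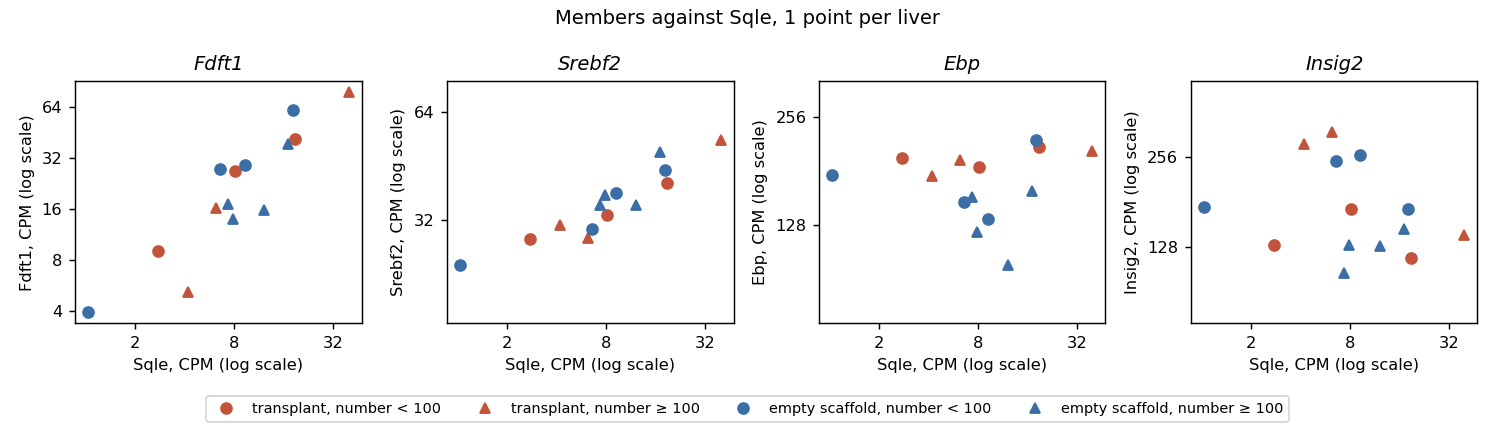
CPM of Fdft1, Srebf2, Ebp and Insig2 against CPM of Sqle (both axes log scaled), 1 point per liver, coloured by group and shaped by the range of the title number. Fdft1 and Srebf2 climb with Sqle in both groups (r = 0.91 and 0.92), and Ebp and Insig2 do not (r = 0.061 and -0.26).

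As a correlation over the 14 livers, Srebf2 had the highest Pearson r with Sqle on log2 CPM, 0.92 (permutation p = 1e-05, the smallest that the resamples can give; Spearman rho 0.92, permutation p = 2e-05). By rank Lss stood higher (rho 0.95, permutation p = 2e-05; r = 0.85, permutation p = 0.00013), and on log2 TPM Cyp51 had the highest r (0.96, permutation p = 1e-05; rho 0.96, permutation p = 1e-05) and Srebf2 stood at 0.86 (permutation p = 0.0001; rho 0.87, permutation p = 0.00022). Fdft1 stood at r = 0.91 (permutation p = 2e-05; rho 0.87, permutation p = 0.00013), and Cyp51 at r = 0.91 (permutation p = 1e-05; rho 0.84, permutation p = 0.00044). Without the 2 livers farthest from the median of Sqle these values of r were 0.86, 0.83 and 0.84. Within the 6 transplant livers r was 0.95 for Srebf2 and 0.93 for Fdft1, and within the 8 empty scaffold livers it was 0.91 and 0.89. Correlations were computed for 27 members in 7 settings (all livers, without the 2 livers, TPM, each group and each range), and their p-values are not adjusted. Of the 27 over all livers, 25 were above 0 with a median of 0.66, and 21 with a median of 0.51 without the 2 livers. Within the livers with title numbers below 100, 20 of 27 were above 0, and within those at 100 or above, 25. The slope of the members did not differ between the groups by edgeR's test of the difference itself, in which 0 of 27 members were called (0% of all genes; 0 members and 344 genes at an unadjusted p under 0.05). The difference of slopes, transplant minus empty scaffold, was 0.046 ± 0.21 for Fdft1 and 0.010 ± 0.070 for Srebf2.

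Sqle was set beside 5 measures of the libraries. Total estimated count had r = 0.035 with Sqle (permutation p = 0.905; rho 0.033, permutation p = 0.916), and the summed hepatocyte markers had r = 0.16 (permutation p = 0.592; rho 0.11, permutation p = 0.716). The slopes of level on length and on GC content had r = 0.18 (permutation p = 0.532; rho 0.14, permutation p = 0.627) and r = 0.22 (permutation p = 0.444; rho 0.20, permutation p = 0.493). The summed macrophage markers had r = -0.31 (permutation p = 0.285; rho 0.14, permutation p = 0.636). With p-values adjusted over the 5 measures, the lowest Pearson permutation p was 0.74 and the lowest Spearman 0.895. Without the 2 farthest livers the values of r were -0.17, 0.23, 0.20, 0.34 and 0.61 in the order given, so the macrophage value changed sign. The macrophage sum was highest, at 312 CPM, in empty scaffold replicate 5, the liver with the least Sqle, and its part in the result was not tested.

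Outside the members, no gene of the other sterol lists was called with Sqle, in a test that called 0.0533% of all genes. This held for 11 genes of sterol transport and esterification (median slope 0.022), 10 of the isoprenoid branches (-0.0031) and 9 of the degradation of sterol enzymes (0.023). It also held for 7 electron donors and neighbours of the route (0.068), 8 genes of the sterol receptor LXR and its targets (-0.014) and 4 of sterol use (0.078). At an unadjusted p under 0.05 there were 2 of the 4 genes of sterol use and 1 of the 7 electron donors, against 3.18% of all genes. Nothing was called either among 12 genes of SREBP1 and fatty acid synthesis (median slope 0.073, from -0.016 to 0.29). Of these 12, 2 had an unadjusted p under 0.05. Srebf1, which encodes SREBP1, had a slope of -0.016 ± 0.088 and Scd1, the stearoyl-CoA desaturase, one of 0.050 ± 0.11. Cyp7a1, which sets the rate of bile acid formation, had a slope of 0.25 ± 0.089 (edgeR adjusted p = 0.9995), as steep as that of Srebf2 and with a larger error.

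Between the groups the members did not differ beyond the spread of single livers. By edgeR's quasi-likelihood test of transplant against empty scaffold, 0 of 28 members were called, against 7.54% of all tested genes (990 of 13127; 3.31% higher and 4.23% lower), and 2 members and 30.0% of all genes had an unadjusted p under 0.05. DESeq2 called 1 member, Tm7sf2 (0.55, adjusted p = 0.0469), and 14.1% of all genes (1956). The log2 fold changes ran from -0.20 to 0.54, with 17 above 0 and 11 below it, a median of 0.078 over the members and one of -0.022 over all genes. The ranges of the groups overlapped for all 28 members.

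**Figure D4:**
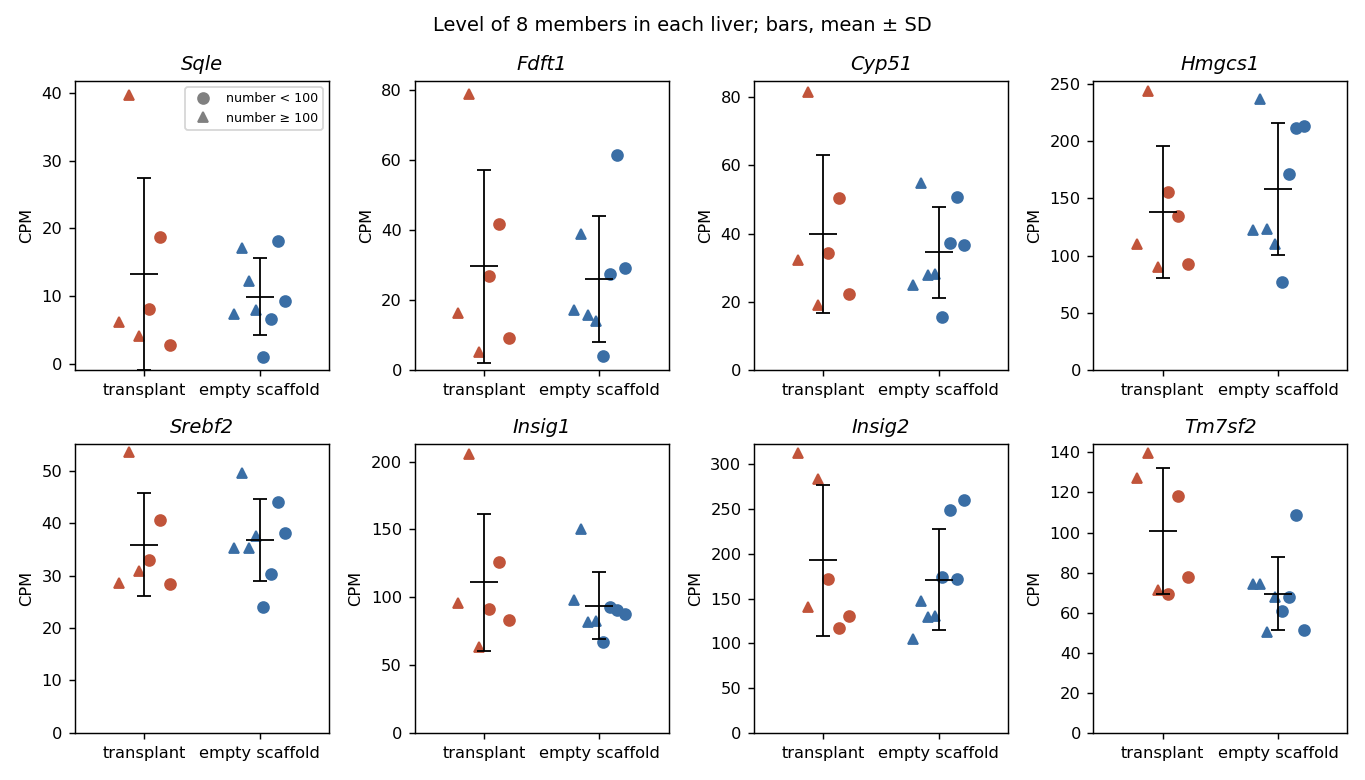
CPM of 8 members in each liver by group (points; circles for title numbers below 100, triangles for 100 or above), with the mean and SD of each group as bars. In each panel the groups overlap, and for the first 6 genes transplant replicate 2 is the highest liver.

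The widest errors belonged to the genes that varied most between livers. Sqle stood at 13.3 ± 14.1 CPM (SD, n = 6) in the transplant group and 9.95 ± 5.68 CPM (SD, n = 8) in the empty scaffold group, a log2 fold change of 0.42 ± 0.61 (SE; edgeR adjusted p = 0.664). Fdft1 stood at 29.6 ± 27.4 against 26.0 ± 17.9 CPM, a log2 fold change of 0.19 ± 0.61. Msmo1 (0.44 ± 0.35), Mvd (0.24 ± 0.37), Insig1 (0.24 ± 0.22) and Cyp51 (0.21 ± 0.32) had positive values, none of them called. Hmgcs1 (-0.20 ± 0.26), Lss (-0.10 ± 0.20) and Srebf2 (-0.037 ± 0.16) had negative ones, though with trends in length and GC content taken out Lss stood at 0.13 and Srebf2 at 0.23. Scap (-0.022) and Mbtps1 (-0.12) likewise stood at 0.25 and 0.087 with those trends out. The other members lay between -0.17 (Dhcr7) and 0.25 (Hsd17b7). The sign of several of these rested on transplant replicate 2. Without it 6 of the 28 members were above 0, with Sqle at -0.31 and Fdft1 at -0.39, while without empty scaffold replicate 5 alone 15 were. Without both transplant replicate 2 and empty scaffold replicate 5, Sqle stood at -0.48, Fdft1 at -0.55, Mvd at -0.31, Cyp51 at -0.23, Msmo1 at -0.12 and Insig1 at -0.086, and 23 of 28 members were below 0, again with 0 called, against 9.99% of all genes (2 members and 4344 genes at an unadjusted p under 0.05).

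**Figure D5:**
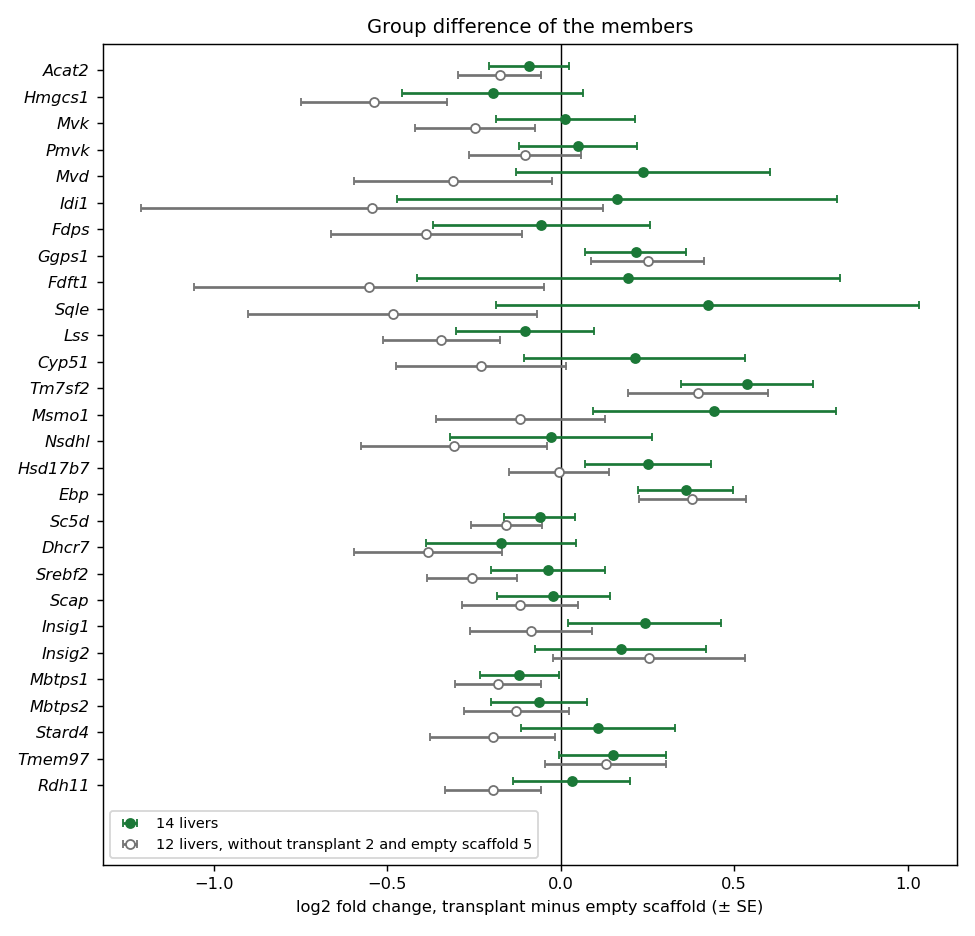
Log2 fold change, transplant minus empty scaffold, of each member (points, bars of 1 SE) over 14 livers (filled) and over the 12 livers left without transplant replicate 2 and empty scaffold replicate 5 (open). Most members lie near 0, and the open points lie to the left of the filled ones for most synthesis genes.

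The 2 members nearest to a call were late steps, and their slopes on Sqle were not called. Tm7sf2 stood at 69.4, 98.1 and 139.8 CPM in the transplant livers and at 50.3, 68.0 and 109 CPM in the empty scaffold livers (lowest, median and highest), so the transplant group was higher at each of these points and the ranges overlapped. Its log2 fold change was 0.54 ± 0.19 (edgeR adjusted p = 0.0808). Ebp stood at 174.9, 196 and 210.3 CPM in the transplant livers and at 99.5, 151 and 221 CPM in the empty scaffold livers, with the highest liver in the empty scaffold group. Its log2 fold change was 0.36 ± 0.14 (edgeR adjusted p = 0.0969). With the number range as a covariate edgeR called Ebp (0.37, adjusted p = 0.0462) and 19.7% of all genes. Without empty scaffold replicate 7 it called both Tm7sf2 and Ebp, and 14.5% of all genes.

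The livers were also compared by the range of their title numbers, where the members were called no more often than genes at large. In edgeR's test of livers numbered 100 or above against those below 100 at a given group, 4 of 28 members were called (14.3%, 3 higher and 1 lower). The share of all genes called was 23.4%. At an unadjusted p under 0.05 there were 8 of 28 members and 37.5% of all genes. Idi1 differed by 1.62 ± 0.55 (edgeR adjusted p = 0.0461) at its low counts, a call lost in 10 of 14 fits that left out 1 liver. Scap, the SREBP escort, differed by 0.44 ± 0.12 (0.0153) and Mbtps1, the first of the SREBP proteases, by 0.30 ± 0.083 (0.0162). Tmem97 differed by -0.42 ± 0.11 (0.0142). With trends in length and GC content taken out, none of these 4 was called, at 1.54, 0.35, 0.18 and -0.21 (adjusted p of 0.0864, 0.0605, 0.0587 and 0.141, in the order given).

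Within the ranges the group difference of Insig2 had opposite signs. Insig2 stood at 117, 156 and 312 CPM in the transplant livers and at 105, 159.5 and 260.3 CPM in the empty scaffold livers (lowest, median and highest), and its log2 fold change over all livers was 0.17 ± 0.25. Transplant replicates 1 and 3, both numbered 100 or above, were high (312 and 284 CPM) and replicate 2 of that range was not (140.4 CPM), while the 4 empty scaffold livers numbered 100 or above stood at 105 to 147 CPM. In livers numbered 100 or above the log2 fold change was 0.94 (edgeR adjusted p = 0.0228), and below 100 it was -0.61 (adjusted p = 0.373). The test of that difference itself gave 1.55 ± 0.34 and did not pass (edgeR adjusted p = 0.176), and 0 of 28 members were called in it (0% of all genes; 2 members and 2275 genes at an unadjusted p under 0.05). Without transplant replicate 2 it was called (1.83, adjusted p = 0.0155). In livers numbered 100 or above, Ebp (0.52) and Tm7sf2 (0.76) were called as well. These 3 of 28 members stand beside 26% of all genes called there (3488 of 13409), a larger share. In that range the groups also differed in run of title numbers and in length slope. The slope was 0.19 to 0.25 in the empty scaffold livers and at most 0.019 in the transplant livers. The part of either in these calls was not tested. In livers below 100 edgeR called 0 members and 3 genes (3 members and 1207 genes at an unadjusted p under 0.05).

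A few neighbours of the route differed between groups, and the counts below stand beside 7.54% of all genes called. Of 11 genes of sterol transport and esterification, 2 were lower in the transplant group, Soat1, which esterifies cholesterol in many cell types (-0.80 ± 0.20, edgeR adjusted p = 0.0321), and Gramd1b, which carries cholesterol from the plasma membrane (-0.82 ± 0.20, edgeR adjusted p = 0.0286). Of 9 genes of sterol enzyme degradation, Rnf145, a ubiquitin ligase of the endoplasmic reticulum, was lower (-0.61 ± 0.14, edgeR adjusted p = 0.0250). With length and GC trends taken out none of these 3 was called (adjusted p = 0.127, 0.112 and 0.0578), and each call was lost in 6 of 14 fits that left out 1 liver. No isoprenoid gene of 10 and no electron donor of 7 was called. Of 4 genes of sterol use, 2 were higher in the transplant group, the oxysterol hydroxylase gene Cyp7b1 (0.90 ± 0.17, edgeR adjusted p = 0.0144) and the sterol hydroxylase gene Cyp27a1 (0.37 ± 0.090, edgeR adjusted p = 0.0288). Of 8 genes of LXR and its targets 1 was lower, the sterol exporter Abcg1 (-0.66 ± 0.19, edgeR adjusted p = 0.0427). Of 12 genes of fatty acid synthesis 3 were lower, Scd1 (-0.97 ± 0.24, edgeR adjusted p = 0.0298) and the acetyl-CoA carboxylases Acaca (-0.74 ± 0.18) and Acacb (-0.59 ± 0.17). With length and GC trends taken out, Cyp7b1 was called and Cyp27a1, Abcg1, Scd1, Acaca and Acacb were not (adjusted p of 0.0537, 0.305, 0.0743, 0.116 and 0.441). Leaving out 1 liver, the call was lost in 0 of 14 fits for Cyp7b1, 5 for Cyp27a1, 8 for Abcg1, 6 each for Scd1 and Acaca and 9 for Acacb. None of these genes was called in the livers numbered below 100. That fit called 3 of 12966 genes (0.0231%), so a missing call there says little about a gene. Of 7 macrophage markers, 3 (Cd5l, Cd68 and Csf1r) were lower in the transplant group, where their sum ranged from 101 to 141 CPM against 125 to 312 CPM in the empty scaffold group, with no marker at 0 in any library. These 3 calls held in all 14 fits that left out 1 liver. Of the stellate cell markers, 3 of 7 (Col3a1, Col1a2 and Lrat; sums of 125 to 247 against 157 to 354 CPM) and 2 of 6 endothelial markers (Cdh5 and Stab2; 72.5 to 101 against 96.4 to 138 CPM) were lower. There the call was lost in 11 of 14 fits for Lrat, 7 for Col1a2, 5 for Col3a1, 1 for Cdh5 and 0 for Stab2. None of 6 hepatocyte markers was called, though all 6 were higher in the transplant group (log2 fold changes of 0.14 to 0.58, median 0.34). Of these, 3 had an unadjusted p under 0.05 by edgeR, against 30.0% of all genes. Their sums ranged from 94195 to 146170 CPM in the transplant group and from 77987 to 140955 CPM in the empty scaffold group. The part of these markers in the differences was not tested.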

How the data were processed

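Per the labels' protocols, liver RNA was purified on columns, a RIN above 7 was required, and 200 ng went into stranded mRNA libraries. The submitters' processing notes name fastp 0.20, kallisto 0.46.1, DESeq2 1.38 and GRCm39, with no role or order. Per the file headers, the authors deposited an estimated count, a TPM, a length and an effective length per transcript. Deposited TPM values, which keep no depth, served for levels between genes and, as log2(TPM + 0.5), for a setting of the correlations with Sqle.

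Estimated counts were summed per gene through GENCODE M21 (99.4% to 99.5% of counts matched; an annotation of GRCm38, so only RefSeq promoter windows carry coordinates) and rounded. Genes were filtered with filterByExpr, scaled by TMM and tested with edgeR 4.0.16 (quasi-likelihood F test, robust, R 4.3.3), with Benjamini-Hochberg adjustment over all tested genes, two-sided, and calls at an adjusted p under 0.05. The association used log2 CPM of Sqle (prior count 2) with the group as a term. Trends in length and GC content were removed, as an alternative, with splines of 4 degrees of freedom. Alternatives also covered DESeq2 1.42.0, other scalings, filters and anchors, the number ranges and each liver left out. The test of slopes between groups and the group difference without both extreme livers were added after seeing the data. Correlations used 100000 resamples, or exact permutation within groups and ranges. The fits were tested on simulated data.

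The members and lists were chosen with earlier results of these data known. All members were to be named, with called genes of each other list (up to 4, by adjusted p) and Srebf1, Scd1 and Cyp7a1. The 1 gene outside the members that was called with Sqle is not reported here. Replicate numbers follow accession order and pair nothing.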

Additional observations from a re-analysis of the deposited data

Results flagged for a closer look

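Of 56 groups examined (28 members in 2 groups), 3 held a liver far from the others by Dixon's test on log2 CPM at the 95% level, at which chance alone gives about 5%. Sqle in empty scaffold replicate 5 stood at 1.04 CPM, below the next liver of its group at 6.57 CPM. Tmem97 in transplant replicate 3 stood at 50.1 CPM, below the next at 74.0 CPM, and that liver was also among the lowest 2 for 15 members. Rdh11 in transplant replicate 2 stood at 23.1 CPM, above the next at 14.2 CPM, and that liver was the highest for 19 members.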

How the results depend on the processing

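No paired analysis was possible because the groups share no replicate numbers in the labels. For the group difference, edgeR called 403 genes (3.07%) with the length and GC offset. With the number range as a covariate it called 2580 genes (19.7%, with 1 member). It called 3 genes (0.0231%) in livers numbered below 100 and 3488 (26%, with 3 members) in those at 100 or above. Inside each range the groups also differ in their run of title numbers, whose part was not tested. DESeq2 called 1956 (14.1%, with 1 member). Leaving out 1 liver gave 138 (without transplant replicate 1) to 1908 genes (without empty scaffold replicate 7) and 0 to 2 members. Uncalled members changed sign under several settings. With the offset these were Lss (0.13), Srebf2 (0.23), Scap (0.25), Mbtps1 (0.087), Mvk (-0.042), Pmvk (-0.12) and Tmem97 (-0.015), and with the range as well Lss stood at 0.12 and Srebf2 at 0.23. Below 100 they were Fdft1 (-0.24), Insig2 (-0.61), Lss (0.11), Mvd (-0.14), Mvk (-0.38), Pmvk (-0.31), Rdh11 (-0.27) and Ggps1 (-0.069), and at 100 or above Fdps (0.20), Mbtps2 (0.027), Nsdhl (0.083) and Stard4 (-0.078). Without both extreme livers they were Cyp51 (-0.23), Fdft1 (-0.55), Insig1 (-0.086), Msmo1 (-0.12), Mvd (-0.31), Sqle (-0.48), Idi1 (-0.54), Mvk (-0.25), Pmvk (-0.10), Rdh11 (-0.20), Stard4 (-0.20) and Hsd17b7 (-0.0059). Over the fits that left out 1 liver the ranges were -0.31 to 0.62 for Sqle, -0.39 to 0.49 for Fdft1, -0.12 to 0.35 for Cyp51, -0.019 to 0.63 for Msmo1, -0.20 to 0.39 for Mvd, -0.027 to 0.37 for Insig1, -0.023 to 0.28 for Insig2 and -0.19 to 0.036 for Srebf2.

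The association with Sqle gave 13 genes (11 members) with the number range as a second covariate. In transplant livers alone it gave 8 genes (4 members). With Hmgcs1 as the anchor it gave 7 genes (7 members), and with Insig1 as the anchor 6 genes (4 members). It gave 0 genes and 0 members without both extreme livers, in the empty scaffold livers alone (13 members and 685 genes at an unadjusted p under 0.05) and with Idi1 as the anchor (5 and 2083), where Dhcr7 (-0.028), Nsdhl (-0.0095), Sc5d (-0.0094) and Scd1 (-0.091) turned negative. Leaving out 1 liver gave 3 to 9 genes and 2 to 7 members, the fewest without transplant replicate 2. Slopes near 0 changed sign. Scap and Mbtps1 turned negative with the offset (-0.017 and -0.0012), and Scap (-0.064), Mbtps1 (-0.049), Mbtps2 (-0.088) and Pmvk (-0.11) without both livers. Srebf1 stood at 0.12 with Hmgcs1 and 0.22 with Insig1 as the anchor, 0.042 with the range and 0.012 in empty scaffold livers. Scd1 stood at -0.091 with Insig1 as the anchor, -0.35 without both livers and -0.0052 in transplant livers, and Ebp at -0.0067 in empty scaffold livers. With 1 liver left out they ranged from -0.061 to 0.081, -0.078 to 0.11 and -0.033 to 0.086. Between the number ranges, 12.7% of genes (1661, with 1 member) were called with the offset. The shares were 0.322% (38, with 0 members) in transplant livers and 28.1% (3345, with 5 members) in empty scaffold livers. With 1 liver left out 2081 to 4615 genes were called, the most without transplant replicate 1. The interaction gave 8 genes with no filter, and 0 to 7 genes and 0 to 1 member with 1 liver left out. The cause was not tested. At these depths, Idi1 is the member most limited by its counts. Sqle, the anchor, stood at 24 estimated counts in empty scaffold replicate 5, its lowest liver, and at 974 in its highest.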

Other observations

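Genes of the body clock and of feeding were set beside Sqle as well, since both are known to move sterol synthesis over a day. Of 13 tested clock genes none was called with Sqle (median slope 0.034, from -0.26 to 0.13), and 0 had an unadjusted p under 0.05. Of 12 genes of feeding and fasting none was called (median slope 0.11, from -0.088 to 0.27), and 2 had an unadjusted p under 0.05. These tests are edgeR's, over the same 14 livers. None of the markers of hepatocytes (6), macrophages (7), stellate cells and fibroblasts (7), sinusoidal endothelium (6) or cholangiocytes (5) was called with Sqle, at median slopes of 0.019, -0.11, 0.047, 0.0094 and -0.13. The same held for the 3 tested markers of lymphocytes (-0.0080) and 3 of red cells (-0.23). Between the groups, 1 of 13 clock genes, the clock repressor Nr1d1, was lower in the transplant livers (-0.58 ± 0.14, edgeR adjusted p = 0.0298), and no feeding gene and no marker of cholangiocytes, lymphocytes, red cells or adipocytes was called. Of 5 adipocyte markers, 4 were at 0 in at least 1 library and 1 passed the filter.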
